A study of Homo sapiens with 5 samples.

Results

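Strong sites of accessible chromatin that had been listed in the Hodgkin line L1236 alone were examined. DNase I cuts DNA where nucleosomes are displaced, so its hypersensitive sites mark promoters, enhancers and insulators in use. Promoter sites tend to be open in many cell types, whereas enhancer sites differ more between cell types, so sites of a single line are commonly read as candidates for its private regulatory elements. Hodgkin lymphoma arises from B cells, and in its tumour cells the B cell identity genes are largely silent.

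Peaks of the 5 lists on chromosomes 1 to 22 were joined wherever they shared at least 1 bp, which gave 58006 merged regions. A region was retained if it held a peak of L1236 and of no other line, and if its highest score was at or above the 75th percentile of the L1236 list, a score of 10632. The members were thus chosen by the peak calls and scores themselves, and 1777 of the 58006 regions met the rule. Each member was a single L1236 peak. The score is taken as the authors' peak area from the names of the lists, its scale is not stated, and score per bp is used as a measure of height on that reading. Members just inside the threshold scored 10632 to 10640, and the L1236-alone regions just outside it 10616 to 10624.

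The L1236 list came from a Hodgkin lymphoma line digested with DNase I at 6 U/ml. The other 4 lists came from the Hodgkin lines L428 (6 U/ml) and L591 (12 U/ml), from the pro-B lymphoblastic leukaemia line Reh (6 U/ml) and from the Burkitt lymphoma line Namalwa (12 U/ml), the last pair being labelled non-Hodgkin. Cell number and enzyme dose were titrated for each line, per the labels. The name inside the L591 list carries a 6 that the sources do not explain, so its dose of 12 U/ml rests on the label alone. All lines were at passage 7, and each is represented by 1 library and 1 peak list. There is therefore no error within a line, and no test between lines was made. Intervals on shares cover counting error only and treat regions as independent, although many lie close together. The read depth behind the lists is unknown.

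The lists were unequal in ways that bear on a region found in a single line. On chromosomes 1 to 22 they held 24971 peaks for L1236, 22758 for L428, 26030 for L591, 27502 for Reh and only 5643 for Namalwa. The L1236 list was the only one without the mark qcTrimmed in its name, so an effect of that mark and a property of L1236 cannot be told apart. The positions are in hg18, and neither a genome nor a gene annotation of that build was used here, so the regions are given by position, without genes or sequences.

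L1236 differed from the other lines in how many of its strong sites had no counterpart. Of the 6155 L1236 regions at or above the threshold, the 1777 members made up 28.9% (exact Clopper-Pearson 95% interval 27.7 to 30.02). Among regions of any score, 48.0% of those with an L1236 peak had no peak of another line, against 24.6% for L428, 28.6% for L591, 49.1% for Reh and 0.728% for Namalwa. The same rule, applied to each other line with its own 75th percentile, retained 283 of 5487 regions in L428 (5.16%, 4.59 to 5.78) and 344 of 6397 in L591 (5.38%, 4.84 to 5.96). In Reh it retained 644 of 6678 (9.64%, 8.95 to 10.4). In Namalwa it retained 0 of 1267, which allows a share of up to 0.237%. Each list was also limited to its 5643 highest-scoring peaks, which left the Namalwa list whole. The 75th percentile was taken anew in each shortened list, and alone meant no retained peak of another line, whatever the full lists held. On that basis 572 of 1406 strong L1236 regions were alone (40.7%). The counts were 128 of 1341 in L428 (9.55%), 59 of 1365 in L591, 12 of 1343 in Reh and 3 of 1270 in Namalwa. With 1 line set against 4, the smallest p an exact one-sided permutation test allows is 0.2, and these shares were part of the rule, so they are given as a description.

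As a ratio, the contrast was greatest at the top of the lists. In every line with a long list, the share of regions that were alone fell as the score rose, but in L1236 it fell less. In the lowest decile by score, 70.0% of L1236 regions were alone, against 51.2% in L428, 55.4% in L591 and 85.1% in Reh. In the ninth decile the shares were 30.3% in L1236, 6.14% in L428, 6.83% in L591 and 11.1% in Reh. In the highest decile, 628 of 2481 L1236 regions were alone (25.3%), against 1.92% in L428, 1.61% in L591 and 1.69% in Reh. The very strongest L1236 sites were shared ones, however. Of the 100 highest-scoring L1236 regions 2 were alone, of the 500 highest 93 (18.6%) and of the 1000 highest 223 (22.3%).

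**Figure D1:**
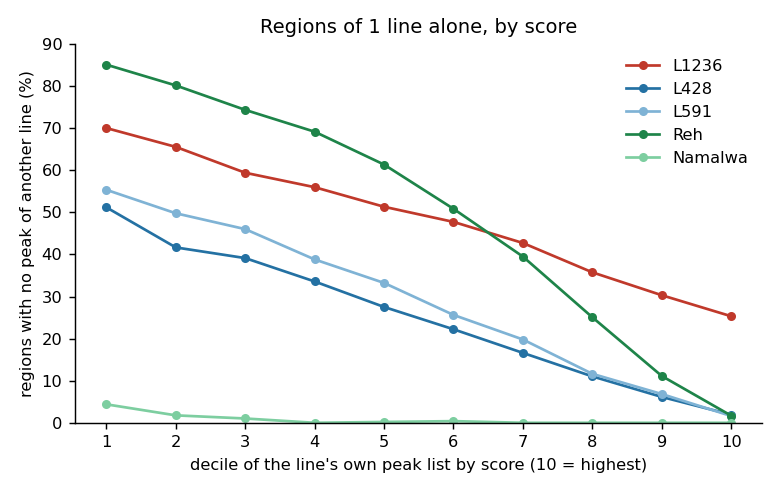
Share of each line's merged regions that held no peak of another line (y axis, percent), by decile of the line's own list ordered by score (x axis, 10 is the highest). Points are the 5 lines, 1 library each; in the highest decile L1236 stood at 25.3% and the other long lists between 1.61% and 1.92%.

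In shape, most members were like other strong L1236 sites, with a minority of very narrow and tall peaks. The median member was 570 bp wide, with an interquartile range of 430 to 730 bp. The 4378 strong L1236 regions shared with another line had a median peak width of 610 bp, and the 9593 L1236-alone regions under the threshold one of 250 bp. The median score per bp was 27.5 in members and 28.3 in shared strong regions. The 95th percentile was higher in members, at 102 score units per bp against 64.8 in shared strong regions. The maximum went the other way, at 1008 in members and 14414 in shared strong regions. On that reading width and height both enter the score, so the members' shape is tied to the rule and was not tested.

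A set of 47 members had peaks of 160 bp or less, which is at most the footprint of 1 read extended to 146 bp and placed in 10 bp bins. They were 2.64% of members, against 7.02% of all L1236 regions and 7 of the 4378 shared strong regions (0.16%). Their median score per bp was 111, against 495 in the 7 shared strong regions of that width. Among the 47 were 16 of the 50 members with the highest score per bp. Of the 47, 25 lay within 2 Mb of the longest stretch of their chromosome in which no list had a peak. The tallest member, at 1008 score units per bp, was a 160 bp peak on chromosome 8 at 32992161 to 32992320. The nearest peak of another line lay 3.07 kb away in L591, 87.1 kb away in Reh, 470 kb away in L428 and 498 kb away in Namalwa. The next tallest were a 160 bp peak on chromosome 9 at 80547361 to 80547520 (762 units per bp) and a 150 bp peak on chromosome 6 at 92493401 to 92493550 (629). On chromosome 9 the nearest other L1236 region was 384 kb away, and the nearest peak of another line 385 kb. Peaks of 250 bp on chromosome 1 at 213739651 to 213739900 (522) and of 260 bp on chromosome 5 at 93929351 to 93929610 (518) completed the 5 tallest.

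The widths of members were not spread evenly. Members of 250 to 280 bp numbered 136 (7.65% of members, against 1.23% of shared strong regions and 11.9% of all L1236 regions). There were 27 members of 170 to 240 bp and 72 of 290 to 340 bp. All L1236 regions numbered 5801 at 170 to 240 bp, 2826 at 250 to 280 bp and 3159 at 290 to 340 bp. These bands differ in breadth, the score threshold enters the members' counts, and the unevenness was not tested.

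**Figure D2:**
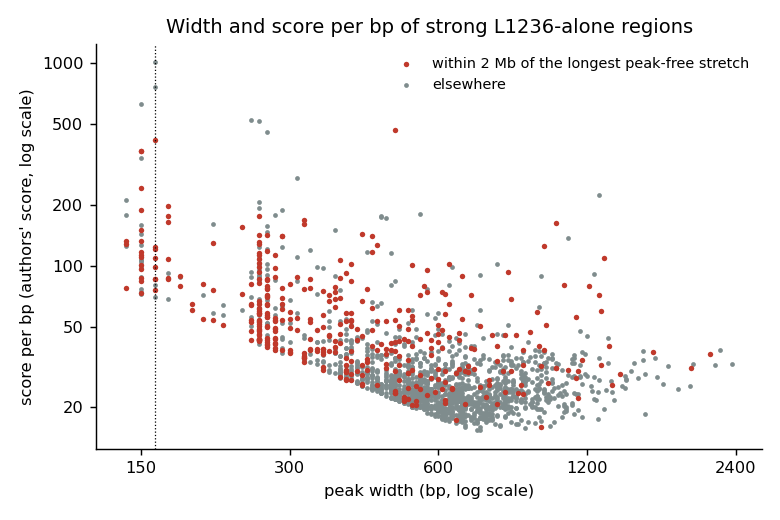
Peak width (x axis, bp, log scale) against the authors' score per bp (y axis, log scale) for the 1777 strong L1236-alone regions, 1 point each; red points lie within 2 Mb of the longest peak-free stretch of their chromosome and grey points elsewhere. The dotted line marks 160 bp; 47 regions lie at or left of it, with a median of 111 score units per bp.

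Most members lay several kb from any site of the other lines. The median distance from a member to the nearest peak of any other line was 12.45 kb, with an interquartile range of 2.95 to 44.9 kb. Of the 1777, 217 (12.2%) had such a peak within 1 kb, and 970 (54.6%, 52.2 to 56.9) had none within 10 kb. For 406 members (22.8%) no other line had a peak within 50 kb. L1236-alone regions under the threshold gave close values, with a median distance of 10.6 kb and 51.1% with no other peak within 10 kb.

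Taken line by line, the median distance from a member was 37.7 kb to the nearest L428 peak, 31.9 kb to L591, 37.1 kb to Reh and 190 kb to Namalwa, whose list is short. A peak within 10 kb was found for 30.9% of members in L591, for 28.6% each in L428 and Reh and for 11.03% in Namalwa. L591 was also the list most often within 10 kb of L1236-alone regions under the threshold (35.9%, with 33.7% for L428 and 28.9% for Reh) and of all L1236 regions (64.1%, with 59.9% for L428 and 50.4% for Reh). The nearest region with a peak of another line also held an L1236 peak for 64.9% of members, whereas L1236 peaks were part of 26.4% of all such regions. For L1236-alone regions under the threshold the share was 54.2%. For members outside the crowded and near-stretch places described below it was 59.7%.

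Members lay close to each other. Another member was found within 20 kb for 994 of them (55.9%, 53.6 to 58.3), and within 1 kb for 426 (24.0%). The shared strong regions lay farther apart, with 36.0% and 10.6% at the same distances from another of their kind, although their set is larger. Outside the crowded and near-stretch places described below, the shares within 20 kb came closer, at 37.8% of members and 32.8% of shared strong regions. Within 1 kb they were 11.9% and 8.76%. An L1236 region of any score lay within 20 kb for 90.04% of members and for 71.6% of all L1236 regions.

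Around a member the L1236 list was denser than the other lists. Within 50 kb on either side the median number of regions was 10 for L1236, against 1 for L428, 1 for L591, 1 for Reh and 0 for Namalwa. These counts include the region itself, so a shared region brings at least 1 region of another line and a member none, and the other lines' counts in both sets are partly set by the rule. Around shared strong regions the medians were 4 for L1236, 3 for L428, 3 for L591, 3 for Reh and 1 for Namalwa. At least 20 L1236 regions stood within 50 kb of 546 members (30.7%, 28.6 to 32.9), against 10.3% of all L1236 regions and 5.34% of shared strong regions. This share depended on how finely peaks were split, since it fell to 19.0% with peaks up to 200 bp apart joined and to 2.25% with peaks up to 1 kb apart joined.

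Much of this crowding lay beside the longest stretch of a chromosome in which no list had a peak. On many human chromosomes that stretch is the unsequenced gap at the centromere, which is flanked by repeated satellite sequence. Its identity was not checked here, because gap positions of hg18 were not used. Within 2 Mb of the stretch lay 379 members (21.3%, 19.4 to 23.3), against 8.57% of all L1236 regions and 4.73% of shared strong regions. Chromosome 16 held 57 of them, chromosome 10 52, chromosome 7 51, chromosome 8 36 and chromosome 4 30. These 379 members were narrower, with a median of 380 bp against 600 bp elsewhere, and taller, with a median of 48.1 score units per bp against 25.3. The 207 shared strong regions near the stretch were also taller, with a median of 38.1 against 28.3 in all shared strong regions. They were wider, however, at 690 bp against 610 bp. The neighbourhood of the 379 members held a median of 43 L1236 regions within 50 kb, 2 of Reh and 0 each of L428, L591 and Namalwa. Their nearest Reh peak was at a median of 12.0 kb, nearer than in L591 (55.5 kb), Namalwa (69.0 kb) or L428 (86.4 kb).

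**Figure D3:**
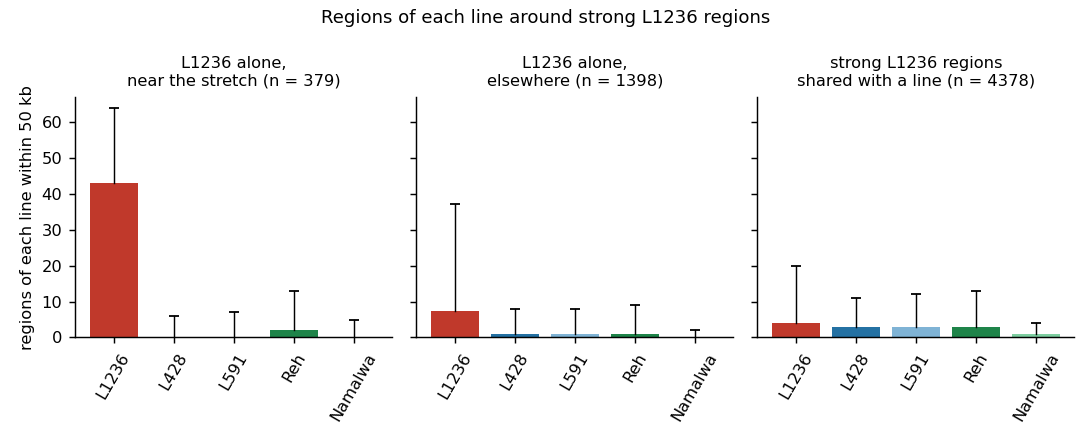
Median number of merged regions of each line within 50 kb on either side (bars; thin lines reach the 95th percentile over regions) around the 379 strong L1236-alone regions near the longest peak-free stretch, the 1398 elsewhere and the 4378 strong L1236 regions shared with another line. L1236 medians are 43, 7.5 and 4 in the 3 panels; no other line's median exceeds 3.

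The same kind of crowding was also present where the rule of the longest stretch did not reach. On chromosomes 11 and 12 the longest peak-free stretches began at 96784471 and 84086881, and few or no members lay near them, with 2 on chromosome 11 and 0 on chromosome 12. Chromosome 12 nevertheless held the longest run of neighbouring merged regions that were all L1236 alone, 105 regions from 34733641 to 36628220 with 28 members. These members stood in separate groups, with none between 34746850 and 36277791. On chromosome 11 a run of 58 regions filled 48775191 to 48857050, a span of 81.9 kb with 12 members. Runs of 94 regions on chromosome 3 (89537011 to 94997810, 21 members) and of 89 on chromosome 10 (38759391 to 39163720, 26 members) came next after chromosome 12 and lay at the longest stretch. The run on chromosome 3 spanned its stretch, which reached from 90586691 to 94989710. The median gap between neighbouring regions was 0.705 kb in the run on chromosome 12, 0.810 kb on chromosome 3 and 0.610 kb on chromosome 10. Of the members, 650 (36.6%) belonged to runs of at least 10 L1236-alone regions and 270 (15.2%) stood in no run. Of all 11370 L1236-alone regions of any score, 2675 belonged to runs of at least 10. The longest run of a single line was 105 regions in L1236, with 13 for L428, 20 for L591, 27 for Reh and 2 for Namalwa.

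The 1 Mb windows with most members were of this crowded kind. The fullest was chromosome 7 from 61 to 62 Mb, with 40 members. It held 158 regions of L1236, 3 of L428, 3 of L591, 20 of Reh and 5 of Namalwa. Chromosome 16 from 33 to 34 Mb had 27 members, where L1236 had 82 regions, L428 5, L591 10, Reh 35 and Namalwa 5. Chromosome 12 from 34 to 35 Mb had 26 members and chromosome 11 from 48 to 49 Mb had 21, and in both windows no other line had more than 4 regions.

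Windows on chromosomes 3, 10 and 14 tied for the next place with 20 members each. On chromosome 3 from 90 to 91 Mb all 89 regions of the window were of L1236 alone, and no other list had any. On chromosome 14 from 18 to 19 Mb L1236 had 55 regions, all alone, against 11 in Reh, 3 in L591 and 0 in both L428 and Namalwa. On chromosome 10 from 41 to 42 Mb L1236 had 58 regions, against 18 in Reh, 10 in L591 and 8 in each of L428 and Namalwa. In all, members fell in 648 windows of 1 Mb, 351 of which had a single one, and the 35 windows with 10 or more held 545 members. Copy number was not measured here, so in such windows copy number and accessibility cannot be told apart.

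**Figure D4:**
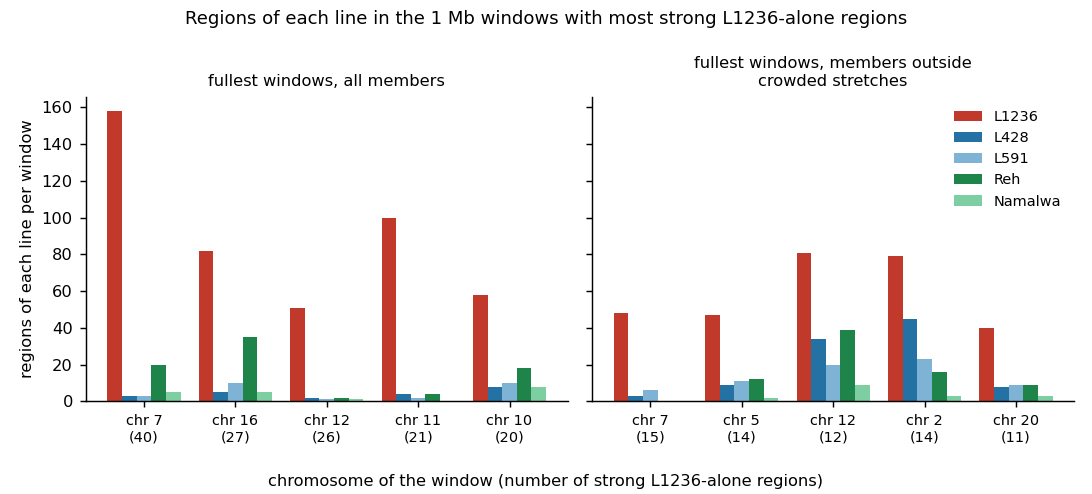
Merged regions of each line (bars, y axis) in the 5 windows of 1 Mb with most strong L1236-alone regions (left; the window on chromosome 10 tied with 2 others) and in the 5 windows with most of those outside crowded stretches (right). Numbers under each chromosome are all strong L1236-alone regions of the window; L1236 has the most regions in each of the 10 windows.

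To describe the members apart from such stretches, those more than 2 Mb from the longest peak-free stretch and with fewer than 20 L1236 regions within 50 kb were described separately, a division chosen after the values had been seen. They numbered 1175, or 66.1% of members. Only the longest stretch of each chromosome was used, so sites beside other peak-free stretches could remain among them. The highest-scoring member, on chromosome 18 and 6.70 Mb from its longest stretch, was among them. With the same division in each line, 22.6% of 5206 strong L1236 regions were alone (21.4 to 23.7), against 5.06% in L428, 5.45% in L591, 9.20% in Reh and 0 of 1180 in Namalwa, which allows a share of up to 0.254%. In the highest decile of scores the share was 17.2% in L1236, 1.86% in L428, 1.68% in L591 and 1.34% in Reh. These uncrowded members resembled shared strong regions of the same kind of place in width, with a median of 610 bp in both. Their median score per bp was lower, at 24.7 against 28.0. The median distance to the nearest peak was 31.5 kb for L591, 35.5 kb for L428, 47.5 kb for Reh and 219 kb for Namalwa. An L591 peak was within 10 kb of 29.3% of them, an L428 peak of 28.1% and a Reh peak of 21.4%. The shared strong regions of the same kind of place had the same order, with 93.2% for L591, 91.1% for L428 and 73.1% for Reh.

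Several windows held many uncrowded members, some of them with crowded members as well. Chromosome 7 from 46 to 47 Mb had 15, spread over 384 kb from 46592511 to 46976510. L1236 had 48 regions there, 44 of them alone, against 3 in L428, 6 in L591 and none in Reh or Namalwa. Chromosome 5 from 134 to 135 Mb had 14 over 199 kb, with 47 regions of L1236, 9 of L428, 11 of L591, 12 of Reh and 2 of Namalwa. On chromosome 12 from 55 to 56 Mb and on chromosome 2 from 111 to 112 Mb the members, 12 and 14 (4 of the 14 crowded), stood among many shared sites, with 31 and 32 of the L1236 regions shared. On chromosome 20 from 23 to 24 Mb there were 11 members, 1 of them crowded, with 40 regions of L1236 and at most 9 of any other line. On chromosome 11 from 120 to 121 Mb 16 members lay within 109 kb, 9 of them crowded, with 48 regions of L1236, 6 of L428, 12 of L591, 5 of Reh and 1 of Namalwa. In these windows too, copy number and accessibility cannot be told apart.

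The highest-scoring members were a mixture of kinds. The highest score, 284320, belonged to a 1270 bp region on chromosome 18 at 16767961 to 16769230, at percentile 99.7 of the L1236 list. Every other line had a peak within 1.55 kb of it, the nearest 0.440 kb away in Reh, and another L1236 region lay 30 bp away. The region on chromosome 6 at 61971961 to 61972450 (227912) lay 20.45 kb from the longest peak-free stretch, with L591 and Reh peaks 0.5 and 1.06 kb away. The region on chromosome 10 at 38921391 to 38922430 (169384) stood in the run of 89, and the nearest peak of another line was 189 kb away. The members at 51429031 to 51430130 on chromosome 11 (149992), at 91636251 to 91637550 on chromosome 2 (140992) and at 18070611 to 18071590 on chromosome 14 (122808) had 29, 46 and 54 L1236 regions within 50 kb, themselves included. The narrow peaks on chromosomes 8, 5 and 1 given above (161240, 134616 and 130488) and a 270 bp peak on chromosome 10 at 20076611 to 20076880 (123352) made up the 10.

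The 260 bp peak on chromosome 5 lay close to peaks of every line. Its nearest peaks were 130 bp away in L428, 130 bp in L591, 240 bp in Reh and 1.20 kb in Namalwa. The 250 bp peak on chromosome 1 was the opposite case, with the nearest peak at 67.8 kb in L591, 741 kb in Reh and 896 kb in both L428 and Namalwa.

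Among uncrowded members several strong sites were broad. The 1240 bp region on chromosome 5 at 23562491 to 23563730 scored 113152 and was isolated, since its nearest peaks were 793 kb away in L428, 798 kb in L591, 2.03 Mb in Reh and 8.004 Mb in Namalwa. The widest, 2230 bp on chromosome 2 at 68846721 to 68848950, scored 85776, and had 19 L1236 regions within 50 kb, itself included. Peaks of the other lines were 3.03 kb away in Reh, 14.1 kb in L428, 14.1 kb in L591 and 51.0 kb in Namalwa. The next widest, 2180 bp on chromosome 20 at 31699111 to 31701290, scored 70696, and its nearest peaks were 2.45 kb away in L591, 14.0 kb in Reh, 16.8 kb in Namalwa and 36.5 kb in L428. A 1940 bp region on chromosome 2 at 7987981 to 7989920 scored 49104, and the nearest peak of another line was 69.5 kb away in L428, although L1236 had another region 1.71 kb away. The 1830 bp region at 45341521 to 45343350 and the 1710 bp region at 57765601 to 57767310, also on chromosome 2, scored 44808 and 44296. The nearest other-line peaks were 27.4 kb and 34.0 kb away.

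The member farthest from any other list was on chromosome 4 at 65156351 to 65156610, a 260 bp peak with a score of 26280. The nearest peak was 1.39 Mb away in L591 and 2.79 Mb away in L428, Reh and Namalwa. The other 4 of the 5 farthest lay at most 14.4 kb from the longest peak-free stretch on chromosome 3, between 90572101 and 90581790, and their nearest other-line peak was 1.08 to 1.09 Mb away.

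Over chromosomes, the members were distributed differently from shared strong L1236 sites. Chromosome 19 held 2.14% of members and 7.63% of shared strong regions, chromosome 17 1.52% and 4.75%, and chromosome 6 2.76% and 5.30%. The order was the other way on chromosome 10, with 4.73% of members and 2.12% of shared strong regions, and on chromosome 11, with 8.22% and 4.75%. For uncrowded regions the shares on chromosome 19 were 1.87% of members and 7.62% of shared strong regions, and on chromosome 17 2.04% and 4.99%. On chromosome 11 they were 5.96% and 4.42%, and on chromosome 1 they were 16.2% and 14.5%, where all regions gave 11.6% and 14.8%. On chromosome 10 they came closer, at 2.72% and 1.94%, and 52 of its 84 members lay near the longest peak-free stretch. Regions are not replicates and each line gave 1 library, so these shares were not tested.

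**Figure D5:**
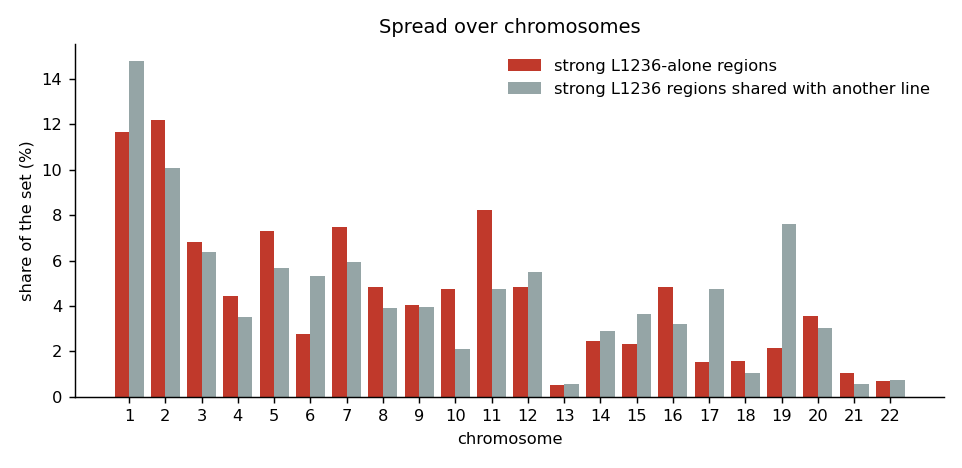
Share of the 1777 strong L1236-alone regions (red) and of the 4378 strong L1236 regions shared with another line (grey) on each of chromosomes 1 to 22 (y axis, percent of the set). Chromosome 19 holds 2.14% of the first set and 7.63% of the second, chromosome 11 8.22% and 4.75%.

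The strong regions found in another single line were described in the same way, with no test of the differences. Within 2 Mb of the longest peak-free stretch lay 21.3% of the strong L1236-alone regions, against 2 of 283 in L428 (0.707%), 6 of 344 in L591 (1.74%) and 13 of 644 in Reh (2.02%). The lines also differed there before any selection, with 8.57% of all L1236 regions, 2.50% of all L428 regions, 2.59% of all L591 regions and 4.92% of all Reh regions. At least 20 regions of the same line stood within 50 kb of 30.7% of them in L1236, 6.01% in L428, 0.291% in L591 and 9.78% in Reh. Peaks of 160 bp or less were 47 in L1236 and 0 in L428, L591 and Reh, although such peaks made up 7.04% of the L1236 list, 4.37% of the L428 list, 0.265% of the L591 list and 5.61% of the Reh list. A count of 0 allows a share of up to 1.06% of the strong alone regions in L428, 0.872% in L591 and 0.466% in Reh.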

How the data were processed

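Peak lists from DNase-seq of 5 human cell lines, with 1 library per line, were the data. The submitters' processing notes name Bowtie 1.00 and the hg18 build, and the file columns name reads extended to 146 bp and 10 bp bins. Caller, calling threshold and depth: not given in the sources used here. Column 6 of each deposited list is the authors' score per peak, taken as a peak area from the list names, with no stated scale common to the lists, so scores were compared only within a list. No peak was filtered; chromosomes 1 to 22 were used.

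Peaks sharing at least 1 bp were merged. Distances count the bases between 2 regions. A stretch is the longest part of a chromosome, from its first base, without a peak in any list. Named regions followed a written rule: the 10 highest scores, the 5 highest scores per bp, the 5 farthest from another line, the fullest windows and the longest runs; the uncrowded regions and windows were chosen after seeing the values. The members and lists were chosen with earlier results of these data known. Shares have exact Clopper-Pearson 95% intervals; an upper limit for a count of 0 uses 3 counts. The tools were scipy 1.17.1, pandas 2.3.3 and numpy 2.4.6 under Python 3.11.15, and the steps were tested on simulated lists. Alternatives covered joining, width, threshold, score per bp, list length, chromosome X, narrow peaks and each other line left out. Promoter, gene and motif descriptions were planned for an hg18 reference and were not run.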

Additional observations from a re-analysis of the deposited data

Results flagged for a closer look

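Chromosome X was outside the rule, and no list serves as a control there. With the threshold of the autosomes, 53 of its 140 strong L1236 regions had no peak of another line (37.9%, exact Clopper-Pearson 95% interval 29.8 to 46.4, counting error only). The share on chromosomes 1 to 22 was 28.9%, and the difference was not tested. A count of 0 would allow up to 2.14%. The 53 regions had a median width of 390 bp and a highest score of 478384.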

How the results depend on the processing

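L1236 kept the highest share of strong regions alone of the 5 lines with lists of equal length (40.7%, against 9.55% in L428, 4.32% in L591 and 0.894% in Reh) and without crowded regions; the cause of these shifts was not tested. The number of members was 1201 with peaks up to 1 kb apart joined, 1576 with 200 bp, 2123 with peaks set to 200 bp, 2128 by score per bp, 1402 without L1236 peaks under 200 bp, 628 at the 90th percentile, 4402 at the 50th, 572 with equal lists and 1175 without crowded and near-stretch regions. With peaks up to 200 bp apart joined, the share alone was 26.9%, median width 630 bp, another member within 20 kb 51.1%, no other line within 10 kb 58.9%, near the stretch 18.8% and crowded 19.0%. With 1 kb these were 22.7%, 780 bp, 38.7%, 67.1%, 12.7% and 2.25%, and the fullest window held 15. With peaks set to 200 bp the share alone was 34.0%, no other within 10 kb 45.7%, crowded 28.2% and median width 600 bp. At the 90th percentile the values were 25.3% alone, 745 bp, 53.0% within 20 kb, 48.9% with no other within 10 kb, 29.3% near the stretch, 42.4% crowded and 17 in the fullest window. At the 50th they were 36.2% alone, 420 bp, 62.0% within 20 kb, 16.3% near the stretch, 22.7% crowded and 67. Ranked by score per bp they were 34.5% alone, 310 bp, 62.3% within 20 kb, 59.2% with no other within 10 kb, 36.1% near the stretch, 45.2% crowded and 77. With equal lists, where threshold and overlap were taken from the shortened lists, they were 860 bp, 45.8%, 72.9%, 27.1%, 16.4% and 18. Without L1236 peaks under 200 bp they were 27.4% alone, 620 bp, 24.8% crowded and 25 in the fullest window. Without crowded and near-stretch regions they were 22.6% alone, 610 bp, 37.8% within 20 kb, 57.9% with no other within 10 kb and 15.

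Another member lay within 10 kb for 49.2% and within 50 kb for 64.9%; no other line within 1 kb for 87.8% and within 50 kb for 22.8%. Near the stretch were 18.3% at 1 Mb, 25.2% at 5 Mb and 23.6% within 500 kb of any stretch of at least 1 Mb. Minimums of 10 and 30 neighbours gave 51.3% and 20.4% crowded, and windows of 100 kb held at most 25. The crowding and stretch settings and the removals of narrow or crowded regions were chosen after seeing the data.

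Leaving out each other line in turn gave 1779 to 2123 members, 28.9% to 34.3% alone, 54.5% to 61.6% with no other within 10 kb, 18.3% to 21.4% near the stretch and 26.8% to 30.7% crowded. No paired analysis was possible because each line has 1 library and no test was made. The lists hold no reads, so depth, duplicate reads and regions missed in a shallow library could not be assessed.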
